A study of Homo sapiens with 6 samples.

Results

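The secreted class 3 semaphorins, the neuropilins that bind them and the plexins that carry their signal into the cell were followed in HCT116, a human colorectal carcinoma cell line, after targeting of the mucin gene MUC3A. The genes described are 10 of the 15284 listed in both deposited tables: the ligands SEMA3A, SEMA3B, SEMA3C and SEMA3F, the neuropilins NRP1 and NRP2, and the plexins PLXNA1, PLXNA2, PLXNA3 and PLXND1. All 10 passed the filter on low counts and were among the 12678 genes tested. They were chosen by name, with earlier results of these data in view: SEMA3A was known to differ in opposite directions with the 2 guides, and why each of the others was taken is not recorded. SEMA3A was fitted with all other genes, but its differences are therefore given as a description, without a p-value.

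The 6 poly(A) RNA-seq libraries form 3 groups of 2. KO1 and KO2 cells were infected with lentiCRISPR v2, a lentivirus that delivers Cas9 with a guide RNA, each carrying a different guide to MUC3A, and both are labelled MUC3A knockout. The protocol, given for all samples, describes infection at a multiplicity of 10 and puromycin selection at 2 µg/mL for 72 h, both for the knockout lines and for a negative control line with a scrambled virus. WT cells are labelled negative control in treatment but wild type in genotype, so the sources used here do not settle whether WT cells carried a vector. All groups share the line, the medium and the library kit. The sources used here do not give whether a knockout line is 1 clone or a pool. Each group has 1 library whose column name begins with HCT and 1 that begins with HCT116, and the libraries of one prefix are here called a set. The labels do not explain the prefix. Nothing says that the libraries were grown as separate cultures, so the spread behind every p-value is that of these libraries and may be technical.

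Class 3 semaphorins are secreted guidance proteins, first known for repelling growing axons. A neuropilin on the receiving cell holds the ligand, and a plexin, whose cytoplasmic part acts on small GTPases, passes the signal on. Neuropilins also bind VEGF, and in tumours the family is studied for its effects on vessels and on cell movement.

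The guides are shown because KO1 and KO2 differ in them and some genes below differed between KO1 and KO2. Each is written 5′ to 3′ and is followed by the SEMA3A site and the SEMA3F site that match it best among 20-base sites with an NGG PAM in annotated transcripts (GENCODE, GRCh38), with mismatched bases in capitals. Introns and the rest of the genome were not searched, and whether any such site was cut was not tested.
KO1 guide: gaaggcaaacttggacgtcg
SEMA3A, best site for the KO1 guide: CTTTgAaaacttAgacCtGA
SEMA3F, best site for the KO1 guide: CaaTgcCaacAAgAaTgCcg
KO2 guide: ttctccacactccagagacc
SEMA3A, best site for the KO2 guide: AtTtTcCcacGcAGgTgacA
SEMA3F, best site for the KO2 guide: GGctccacTctcTagaAacc
In SEMA3A the best site had 9 mismatches with either guide. The SEMA3F site for the KO2 guide had 5 mismatches, the fewest over the 10 genes and both guides, and the other best sites had 7 to 9.

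The promoters of SEMA3F, NRP2 and PLXNA1 are shown because these 3 genes were lower in KO2 than in KO1. They are the 250 bases before a RefSeq start (GRCh38.p14), written 5′ to 3′ on the gene's strand, and capitals mark GGGCGG, the core of the GC box, and CAGGTG, an E-box, on either strand. RefSeq start entries were matched by symbol for 8 of the 10 genes, and SEMA3A and NRP1 had none in the table used.
SEMA3F, chr3:50154808-50155057, plus strand: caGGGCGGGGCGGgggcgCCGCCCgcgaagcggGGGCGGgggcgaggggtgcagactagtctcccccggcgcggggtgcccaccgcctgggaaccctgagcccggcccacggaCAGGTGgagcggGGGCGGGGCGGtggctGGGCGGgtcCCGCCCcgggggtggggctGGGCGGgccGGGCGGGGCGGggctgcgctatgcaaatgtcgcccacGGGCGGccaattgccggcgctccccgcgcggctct
NRP2, chr2:205682251-205682500, plus strand: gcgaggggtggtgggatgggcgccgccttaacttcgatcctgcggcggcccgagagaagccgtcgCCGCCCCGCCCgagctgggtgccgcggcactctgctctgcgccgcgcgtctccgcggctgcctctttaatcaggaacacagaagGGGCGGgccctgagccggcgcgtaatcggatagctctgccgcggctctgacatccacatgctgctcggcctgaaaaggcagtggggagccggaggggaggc
PLXNA1, chr3:126982865-126983114, plus strand: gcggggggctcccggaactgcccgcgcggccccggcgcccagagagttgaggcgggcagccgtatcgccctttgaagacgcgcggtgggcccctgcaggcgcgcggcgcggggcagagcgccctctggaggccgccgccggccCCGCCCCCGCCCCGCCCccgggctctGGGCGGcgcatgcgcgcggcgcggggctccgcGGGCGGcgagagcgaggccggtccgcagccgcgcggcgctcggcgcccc
Counting overlapping matches, GGGCGG occurred 12 times in the SEMA3F window, 3 times in that of NRP2 and 5 times in that of PLXNA1. The SEMA3F window is 1 of 3 RefSeq starts of the gene in the table and the one with the most matches. The windows of the others, chr3:50155074-50155323 and chr3:50158769-50159018, held GGGCGG 2 and 0 times and no CAGGTG, and were 80.4% and 52.8% GC. NRP2 and PLXNA1 have 1 window each. CAGGTG occurred 1 time in the SEMA3F window shown and was not found in those of NRP2 and PLXNA1. Over 35116 promoters of the same length, 42.6% held GGGCGG and 17.5% held CAGGTG. The 3 windows shown were 82.0%, 70.0% and 84.4% GC, against a median of 58% over all promoters. Matched genes that did not pass between the knockouts held the GC box core too. It occurred 9 times in the window of PLXND1 (88.8% GC), 3 times in that of PLXNA2 and 2 times in that of PLXNA3. The windows of SEMA3C held it 3 and 0 times, and those of SEMA3B 0 to 4 times. CAGGTG occurred 1 time in the SEMA3B window at chr3:50267402-50267651, and SEMA3B did not pass between the knockouts either. A match is therefore not particular to the 3 genes shown. These are letter matches, and binding was not measured.

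Groups were compared with edgeR's quasi-likelihood test on terms for group and set, and the threshold throughout is a Benjamini-Hochberg adjusted p of 0.05 over the 12678 genes. Without the set term no gene passed it in edgeR in any comparison of groups, so every such call below depends on that term. A fit that leaves out 1 library leaves its group with 1, so its spread comes from the other groups alone. An adjusted p from such a fit is not comparable with that of all 6 libraries. Pairs of values give the HCT library first. Library totals ran from 13638724 to 17830282 counts. CPM, the depth-scaled count used below, rests on TMM-scaled library sizes, and 3 counts, the limit that a count of 0 allows, correspond to 0.168 to 0.220 CPM before that scaling. MUC3A itself lay between 24.6 and 52.9 CPM in all 6 libraries, and its log2 fold change was 0.08 ± 0.18 (SE) in KO1 and −0.43 ± 0.19 in KO2 against WT, neither past the threshold (edgeR adjusted p = 0.962 and 0.237, n = 2 libraries per group), so the transcript level does not check the label. All 9 colorectal epithelial markers were present. Their summed level was 6877 and 8969 CPM in WT, next to 9338 and 15669 in KO1, and 5662 and 9793 in KO2 (HCT set first). Of the 9, 5 (KRT8, KRT18, KRT19, CDH1 and ELF3) fell in KO2 against KO1, where 5.39% of all tested genes did. The groups overlapped for KRT8, KRT18 and CDH1. Endothelial markers summed to 11.1 to 15.0 CPM, with 6 of 7 listed in the tables and 4 of these under 1 CPM in every library. Fibroblast markers summed to 35.4 to 67.5 CPM with 4 of 8 in the tables, and COL1A2, LUM, POSTN and FAP were not listed. COL1A1 alone was 34.3 to 66.4 CPM, and 2 of the 4 were under 1 CPM in every library. Neuronal markers, 7 of 8 in the tables, summed to 132 to 155 CPM in the HCT libraries and 51.4 to 76.6 in the others. SYT1 alone was 125.5 to 149 and 41.8 to 67.5 CPM there, and 3 of the 7 were under 1 CPM in every library. Leukocyte markers, 6 of 7 in the tables without CD3E, summed to 9.50 and 9.99 CPM in WT, next to 21.9 and 20.9 in KO1, and 6.33 and 14.0 in KO2. Of these 6, 3 were under 1 CPM in every library. CD68 alone was 7.55 and 8.495 CPM in WT, next to 19.03 and 17.5 in KO1, and 4.66 and 11.8 in KO2. It made up most of the leukocyte sum in every library. CD68 fell in KO2 against KO1, at a log2 difference of −1.25 ± 0.303 (edgeR adjusted p = 0.0248). The part of these marker levels in the results below was not tested.

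Levels were compared between genes only per length, as CPM per kilobase of the union of annotated exons (GENCODE, GRCh38), which does not follow the isoforms in use. In WT the mean was 20.4 CPM per kilobase for SEMA3B, 14.8 for PLXNA1, 14.1 for PLXND1, 13.5 for SEMA3F and 12.01 for PLXNA3 (n = 2). Lower means per kilobase were those of SEMA3C at 4.96, SEMA3A at 1.74, PLXNA2 at 0.367, NRP1 at 0.315 and NRP2 at 0.234. Neighbours in this order overlapped over the pair of WT libraries, with 2 exceptions: PLXNA3 (8.997 and 15.0) lay above SEMA3C (1.75 and 8.18), and SEMA3A (0.644 and 2.83) lay above PLXNA2 (0.165 and 0.569). SEMA3B, SEMA3F, PLXNA1, PLXNA3 and PLXND1 stayed at or above 8.99 CPM per kilobase in all 6 libraries. Both neuropilins stayed at or under 0.619 CPM per kilobase. Outside the 10 genes, PLXNB2, a plexin for class 4 semaphorins, had 83.4 to 119 CPM per kilobase, and PLXNA4, another class A plexin, did not exceed 0.0227.

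SEMA3A, the founding repellent ligand, which binds NRP1, was counted 361 times in the HCT library and 68 times in the HCT116 library of WT. KO1 had 66 and 32 counts, and KO2 had 3017 and 1353. On the CPM scale these were 23.5 and 5.35 in WT, next to 4.42 and 2.47 in KO1, and 158 and 93.5 for KO2. Both KO1 libraries lay below both WT libraries and both KO2 libraries above them, while the WT libraries differed more from each other than the KO1 libraries did. The fitted log2 fold change was −1.95 ± 0.32 (SE, n = 2 libraries per group) in KO1 against WT, 3.86-fold lower, and 3.30 ± 0.26 in KO2 against WT, 9.88-fold higher. Within sets (HCT first), the log2 ratio to WT was −2.37 and −1.07 for KO1 and 2.74 and 4.09 for KO2. Between the knockouts the fitted difference was 5.25 ± 0.31, or 38.2-fold, with ratios of 5.12 and 5.17 in the 2 sets. In bulk libraries such as these, fewer cells with a transcript and less RNA per cell cannot be told apart. The KO1 difference rests in part on the HCT libraries: it was −1.08 without that of WT and −1.64 without that of KO1. The authors' deposited table gives −2.07 for KO1 and 3.09 for KO2 against WT.

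**Figure D1:**
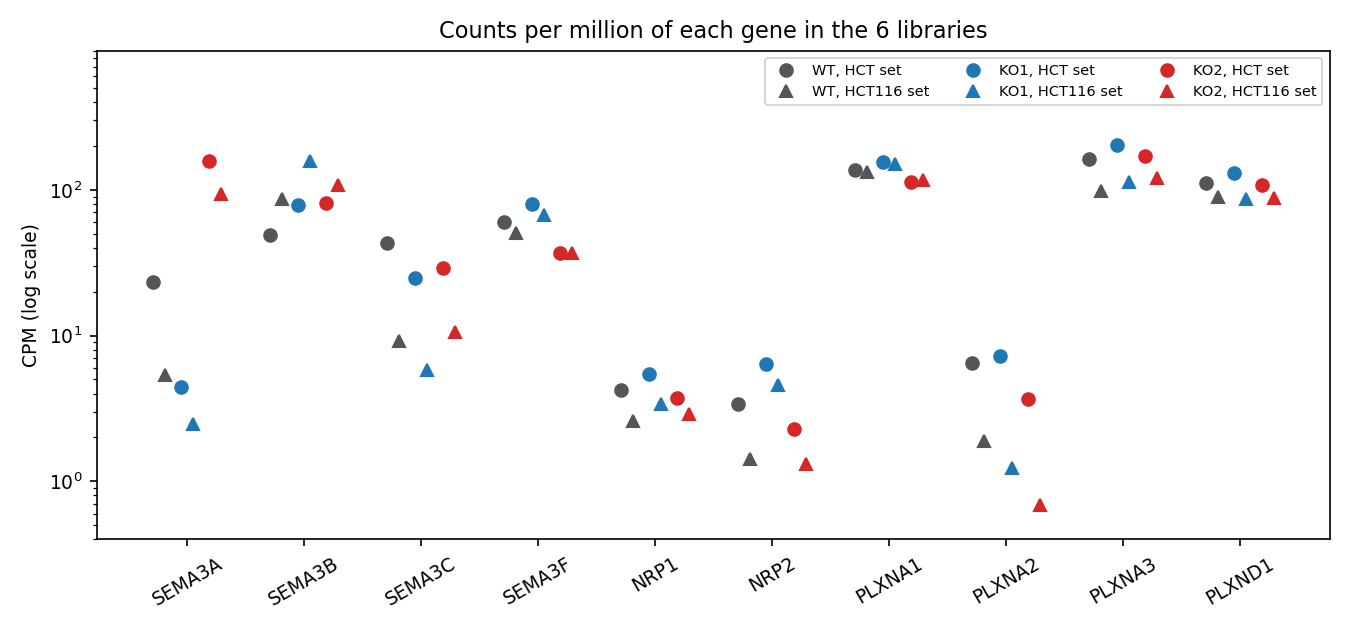
CPM of each of the 10 genes in the 6 libraries (log axis), with the genes on the horizontal axis, the group shown by colour and the prefix set by symbol. SEMA3A in KO2, at 158 and 93.5, stands above all other SEMA3A libraries, and SEMA3C and PLXNA2 are lower in the HCT116 set in every group.

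SEMA3A also took a different place among the 7 class 3 genes. It made up 6.51% and 1.49% of their summed CPM per kilobase in the WT libraries and 1.04% and 0.437% in those of KO1. For KO2 the share was 30.7% and 19.4%, second to SEMA3B in both libraries. The sum over the 7 genes was 43.4 and 43.3 CPM per kilobase for WT, 51.2 and 68.1 for KO1, and 61.9 and 58.1 for KO2, so the sums overlapped between the knockouts although SEMA3A did not. SEMA3B had the highest level per kilobase of the class 3 ligands in every library, with 34.1% to 70.1% of the sum. In the HCT library of WT its 34.1% lay close to the 33.5% of SEMA3F.

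**Figure D2:**
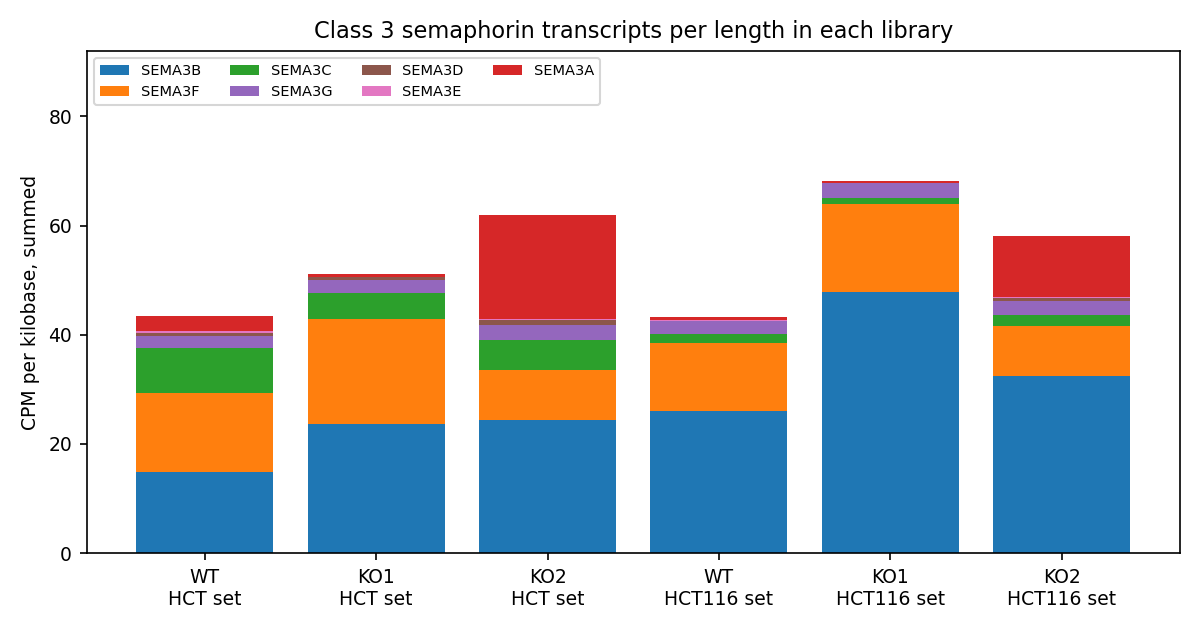
Stacked levels of the 7 class 3 semaphorins, in CPM per kilobase of exon, in each of the 6 libraries. The SEMA3A segment is 19.0 and 11.3 in the KO2 libraries and 2.83 or less in the other 4.

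SEMA3B, a ligand described as a tumour suppressor and lost with its chromosome 3 region in many lung tumours, was 49.1 and 86.4 CPM in WT, next to 78.3 and 158 in KO1, and 81.1 and 108 in KO2. The WT and KO1 ranges overlapped because the HCT116 library was higher in each group, whereas within each set KO1 was the higher one. SEMA3B rose in KO1 by 0.78 ± 0.15 on the log2 scale, 1.72-fold (edgeR quasi-likelihood test with a set term, Benjamini-Hochberg adjusted p = 0.0331). Without the HCT116 library of KO1 it was 0.55 (adjusted p = 0.703), and it also missed the threshold without either WT library (adjusted p = 0.0517 and 0.0543 in edgeR). In KO2 against WT the log2 value was 0.53 ± 0.15 (edgeR adjusted p = 0.0754). With 1 library left out it ran from 0.27 to 0.78, the highest without the HCT116 library of KO2.

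SEMA3F, a ligand that signals mainly through NRP2 and lies near SEMA3B on chromosome 3, was 59.7 and 51.0 CPM in WT, next to 79.5 and 66.8 in KO1, and 37.1 and 37.0 in KO2. The 3 groups did not overlap: KO1 was above WT, and KO2 below it. SEMA3F fell by 0.58 ± 0.14 on the log2 scale in KO2 against WT, 1.49-fold (edgeR adjusted p = 0.0352). It was lower in KO2 than in KO1, with a log2 difference of −0.98 ± 0.13, 1.97-fold, with −1.10 and −0.85 within the sets (edgeR adjusted p = 0.00101). With each of the 6 libraries left out in turn, this difference ran from −1.08 to −0.86. The fall against WT did not pass without the HCT library of KO1 or either WT library, HCT or HCT116 (edgeR adjusted p = 0.0757, 0.212 and 0.133). In KO1 against WT the log2 value was 0.40 ± 0.13 (edgeR adjusted p = 0.289), and 0.40 and 0.38 without the HCT or the HCT116 library of KO2.

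SEMA3C, a ligand of both neuropilins that has been tied to cell migration, was 43.1 and 9.20 CPM in WT, next to 24.8 and 5.80 in KO1, and 29.0 and 10.6 in KO2. All groups overlapped, since the HCT library was the higher one each time. The log2 value was −0.74 ± 0.21 in KO1 (edgeR adjusted p = 0.173), −0.23 ± 0.21 in KO2 (0.602) and 0.51 ± 0.21 between the knockouts (0.163), none past the threshold. Library choice moved these values: with 1 library left out they ran from −0.93 to −0.46, −0.55 to 0.17 and 0.22 to 0.92 in the same order.

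The neuropilins were scarce. NRP1, the receptor that holds SEMA3A and also binds VEGFA, had 65 and 33 counts in WT, next to 81 and 44 in KO1, and 71 and 42 in KO2. On the CPM scale all 6 values lay between 2.60 and 5.43, the groups overlapped, and no comparison passed the threshold. The log2 values were 0.37 ± 0.31 in KO1 (edgeR adjusted p = 0.842), −0.03 ± 0.31 in KO2 (0.970) and −0.40 ± 0.30 between the knockouts (0.455).

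NRP2, the receptor preferred by SEMA3F, had 52 and 18 counts in WT, next to 95 and 59 in KO1, and 44 and 19 in KO2. The CPM were 3.38 and 1.42 in WT, next to 6.37 and 4.56 in KO1, and 2.30 and 1.31 in KO2. Each KO1 library lay above all 4 others. NRP2 was lower in KO2 than in KO1, at a log2 difference of −1.62 ± 0.35, 3.07-fold (edgeR adjusted p = 0.0136). This call was lost without the HCT library of KO1 (−1.92, adjusted p = 0.0661) or its HCT116 library (−1.38, adjusted p = 0.085, edgeR). Against WT, the KO1 value was 1.23 ± 0.34 (edgeR adjusted p = 0.160), and 1.22 and 1.20 without the HCT or the HCT116 library of KO2. The KO2 value against WT was −0.39 ± 0.37 (edgeR adjusted p = 0.630).

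Among the plexins, PLXNA1, a signalling partner of both neuropilins, had the smallest spread between sets. It was 136 and 133 CPM in WT, next to 156 and 150.2 in KO1, and 114 and 116 in KO2, with no overlap between groups. PLXNA1 was lower in KO2 than in KO1, at a log2 difference of −0.41 ± 0.12, 1.33-fold (edgeR adjusted p = 0.0451). The call was lost without the HCT library of KO1 (adjusted p = 0.464), the HCT116 library of KO1 (0.325) or the HCT116 library of WT (0.0553, edgeR). Against WT the values were 0.19 ± 0.12 in KO1 and −0.23 ± 0.12 in KO2 (edgeR adjusted p = 0.735 and 0.315).

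PLXNA2, a related class A plexin, was the scarcest plexin of the 10 genes, with 100 and 24 counts in WT, next to 108 and 16 in KO1, and 70 and 10 in KO2. Its CPM ran from 0.691 in the HCT116 library of KO2 to 7.24 in the HCT library of KO1, and the groups overlapped. The log2 value was −1.04 ± 0.36 in KO2 against WT (edgeR adjusted p = 0.133) and −0.93 ± 0.35 between the knockouts (0.130), and in KO1 against WT it was −0.11 ± 0.34 (0.975), with opposite signs in the 2 sets.

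PLXNA3, a plexin that can serve both neuropilins, was 163.5 and 97.9 CPM in WT, next to 204 and 114 in KO1, and 171 and 121 in KO2. The groups overlapped and no comparison passed the threshold (edgeR adjusted p = 0.590, 0.471 and 0.722 for KO1 and for KO2 against WT, and between the knockouts). PLXNA3 overlaps LAGE3 on the opposite strand in the GENCODE annotation. LAGE3 had 259 to 865 counts per library, and since the sources used here do not say whether counting used strand, reads of the overlap cannot be told apart.

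PLXND1, the plexin that SEMA3E binds without a neuropilin and a vascular guidance receptor, was 111 and 89.4 CPM in WT, next to 130.2 and 86.6 in KO1, and 108 and 88.6 in KO2. The groups overlapped, and its log2 values of 0.10 ± 0.13, −0.02 ± 0.13 and −0.12 ± 0.13 in the same order did not pass (edgeR adjusted p = 0.910, 0.947 and 0.608).

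**Figure D3:**
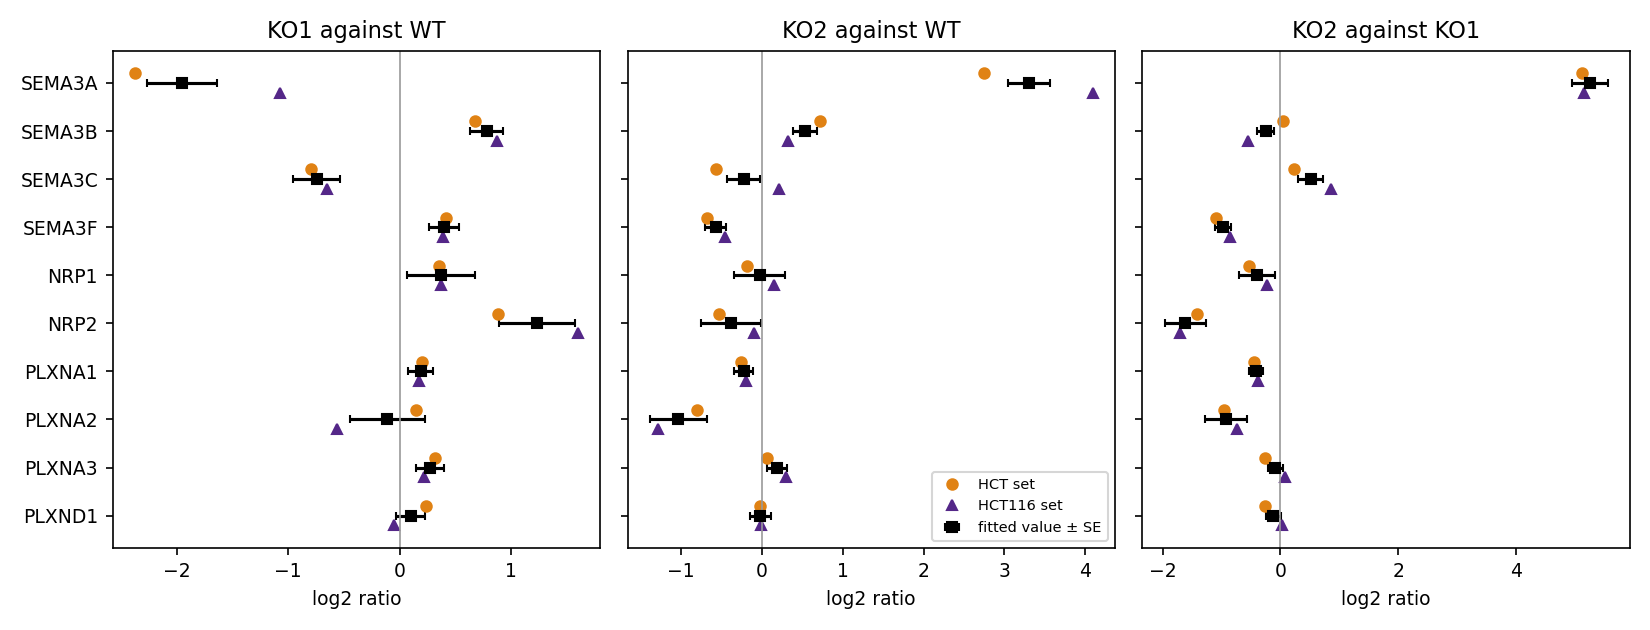
Log2 ratios of the 10 genes in KO1 against WT, KO2 against WT and KO2 against KO1, with the HCT set as circles, the HCT116 set as triangles and the fitted value with its SE as squares. SEMA3A lies at −1.95, 3.30 and 5.25, SEMA3F on opposite sides of 0 with the 2 guides, and PLXND1 near 0.

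SEMA3A, chosen for its differences, is left out of the counts that follow. Of the other 9 genes, 1 passed the threshold in KO1 against WT (SEMA3B, higher), where 1.03% of all 12678 tested genes did, 0.678% higher and 0.347% lower. In KO2 against WT 1 passed (SEMA3F, lower), with 4.61% of all tested genes, 2.15% higher and 2.47% lower. Between the knockouts 3 passed (SEMA3F, NRP2 and PLXNA1, lower in KO2), with 9.62% of all tested genes, 4.24% higher and 5.39% lower. The groups did not overlap for SEMA3F, NRP2 and PLXNA1 in KO1 against WT, for SEMA3F and PLXNA1 in KO2 against WT, and for all 3 genes between the knockouts, against 12.6%, 20.4% and 24.8% of all tested genes. Because the genes were chosen with these comparisons known, nothing is read from the difference between those shares. The median log2 fold change of all 10 genes, here with SEMA3A included, was 0.23, −0.13 and −0.33 in that order. That of all tested genes was 0.00121, −0.000126 and 4.7e-05. The comparisons share libraries, so their values are not independent of each other.

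In edgeR, all of these calls rest on the set term. Without it, edgeR passed 0 of the 9 genes and 0 of all genes in each of the 3 comparisons, with an adjusted p = 0.778 for SEMA3F in KO2 against KO1, and 173, 309 and 513 genes at an unadjusted p under 0.05. DESeq2 without the term also passed 0 of the 9 in each comparison. The log2 values themselves moved little, to −2.06, 3.12 and 5.18 for SEMA3A and −0.98 for SEMA3F in KO2 against KO1. In the authors' deposited table the adjusted p-values of the 9 genes round to 1 for both guides.

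**Figure D4:**
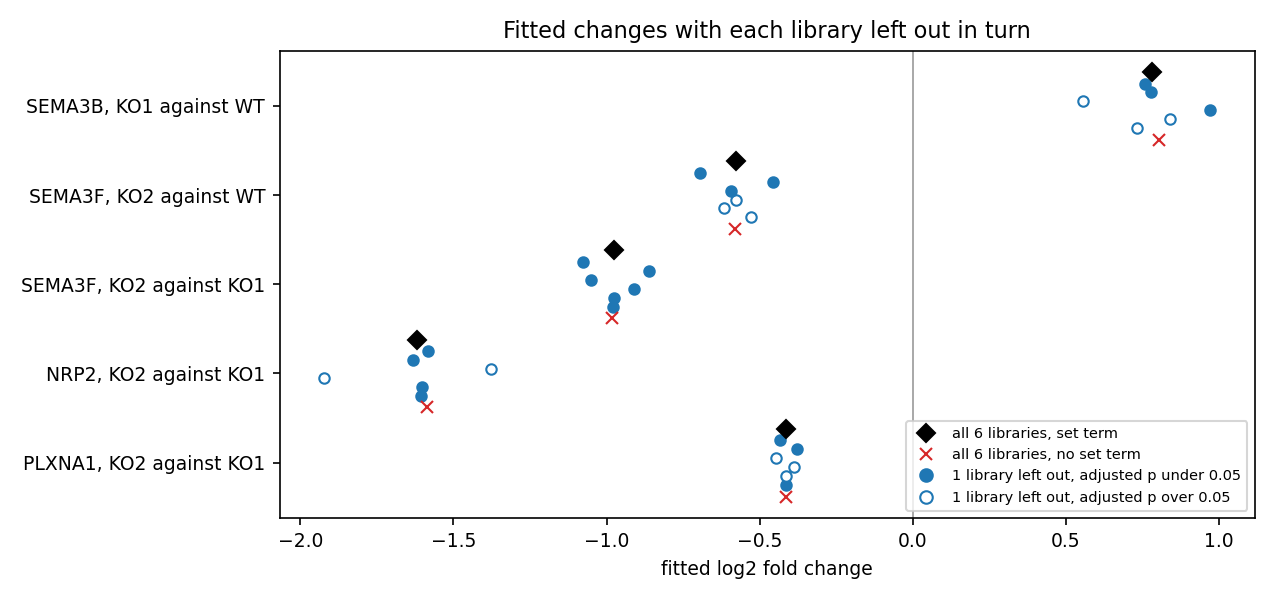
Fitted log2 fold changes of SEMA3B, SEMA3F, NRP2 and PLXNA1 in the comparisons where they passed the threshold, with all 6 libraries (diamonds), with each library left out (circles, filled where the edgeR adjusted p is under 0.05) and without the set term (crosses). SEMA3F in KO2 against KO1 has 6 filled circles between −1.08 and −0.86, and each other call has open ones.

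Family genes also differed between the sets. With group in the model, 7 of the 10 genes differed between the HCT116 set and the HCT set, against 63.9% of all tested genes, a share close to that of the 10. SEMA3B was higher in the HCT116 set by 0.75 ± 0.12 on the log2 scale (edgeR adjusted p = 0.000294). SEMA3C was lower, at −1.91 ± 0.18 (adjusted p = 8.74e-06), as was PLXNA2, at −2.21 ± 0.30 (adjusted p = 6.95e-05, edgeR). SEMA3A, NRP2, PLXNA3 and PLXND1 were also lower, at −1.21, −0.80, −0.69 and −0.39. SEMA3F, NRP1 and PLXNA1 did not pass, with −0.16, −0.58 and −0.02. What the prefix stands for, and so what these differences belong to, cannot be told from the labels.

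The wider pathway was described from 7 lists with 73 genes, of which 61 were tested. Against WT, 0 of the 61 rose and 1 fell in KO1, and 1 rose and 2 fell in KO2, while 2 were higher and 8 lower in KO2 than in KO1. These are 1.64%, 4.92% and 16.4% of the list, beside 1.03%, 4.61% and 9.62% of all tested genes. The lists' joint median was 0.04, −0.09 and −0.11.

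The other class 3 ligands did not pass in any comparison of groups. SEMA3D, which lies beside SEMA3A in the order of tested genes on chromosome 7, had 59 and 2 counts in WT, next to 43 and 8 in KO1, and 122 and 48 in KO2. Its log2 value was 1.62 ± 0.54 in KO2 against WT (edgeR adjusted p = 0.125) and 1.69 ± 0.55 between the knockouts (adjusted p = 0.0801), where the groups did not overlap. SEMA3E, the direct ligand of PLXND1, had 6 to 40 counts, and SEMA3G, an endothelial ligand of NRP2, lay between 11.3 and 13.2 CPM in all libraries.

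Of the semaphorins of classes 4 to 7, 10 of 13 were tested. SEMA7A, a membrane-anchored semaphorin, was 38.8 and 57.7 CPM in WT, next to 55.3 and 56.7 in KO1, and 23.6 and 29.8 in KO2. SEMA7A fell in KO2, with log2 values of −0.84 ± 0.16 against WT (edgeR adjusted p = 0.0131) and −1.08 ± 0.16 against KO1 (adjusted p = 0.00156), with KO2 below all other libraries. SEMA4B, a transmembrane semaphorin, was lower in KO2 than in KO1, at a log2 difference of −0.76 ± 0.22 (edgeR adjusted p = 0.0492), with ratios of −1.35 and −0.19 in the HCT and HCT116 sets. Among the other plexins 4 of 5 were tested and 0 passed.

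Of the co-receptors and other neuropilin partners, 5 of 11 were tested, and KDR, the main VEGF receptor of endothelium, had at most 0.603 CPM. PTK7, a catalytically inactive receptor kinase of planar cell polarity, was 344 and 354 CPM in WT, next to 326 and 329 in KO1, and 492 and 540 in KO2. PTK7 rose by 0.56 ± 0.12 in KO2 against WT (edgeR adjusted p = 0.0231) and was higher than in KO1 by 0.66 ± 0.12 (adjusted p = 0.00592). MET, the receptor of hepatocyte growth factor and a plexin partner, fell in KO2 against KO1, at −0.60 ± 0.16 (edgeR adjusted p = 0.0353), although the groups overlapped across sets.

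VEGF ligands, which compete with semaphorins for neuropilins, had 4 of 5 members tested. VEGFA was 69.3 and 42.5 CPM in WT, next to 81.5 and 46.3 in KO1, and 55.8 and 34.3 in KO2, and fell in KO2 against KO1, at −0.49 ± 0.13 (edgeR adjusted p = 0.0352) with overlapping groups. PGF, placental growth factor, fell in the same comparison, at −0.74 ± 0.20 (edgeR adjusted p = 0.0422). FURIN, the convertase that cleaves class 3 semaphorins, was 128 and 170 CPM in WT, next to 134 and 154 in KO1, and 91.8 and 112 in KO2. FURIN fell in KO2, with −0.54 ± 0.12 against WT and −0.50 ± 0.12 against KO1 (edgeR adjusted p = 0.0268 and 0.0224), and the other 3 convertases tested did not pass.

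Downstream of the plexins, 31 of 32 effectors and collapsin response mediator proteins (CRMPs, cytosolic proteins that relay SEMA3A signals to microtubules) were tested. DPYSL5, which encodes CRMP5, had 619 and 526 counts in WT, next to 6 and 0 in KO1, and 632 and 462 in KO2. The count of 0 allows up to 0.219 CPM before scaling. The fitted DPYSL5 value was −7.52 ± 0.39 in KO1 against WT (edgeR adjusted p = 7.96e-06) and 7.19 ± 0.40 in KO2 against KO1 (adjusted p = 2.9e-06), and its size depends on the few KO1 reads. CDK5R1, an activator of the kinase CDK5 that phosphorylates CRMPs, fell in KO2 against KO1, at −0.83 ± 0.20 (edgeR adjusted p = 0.0267). MICAL2, a monooxygenase that acts on actin, fell in the same comparison, at −0.59 ± 0.17 (adjusted p = 0.046, edgeR) with overlapping groups.

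**Figure D5:**
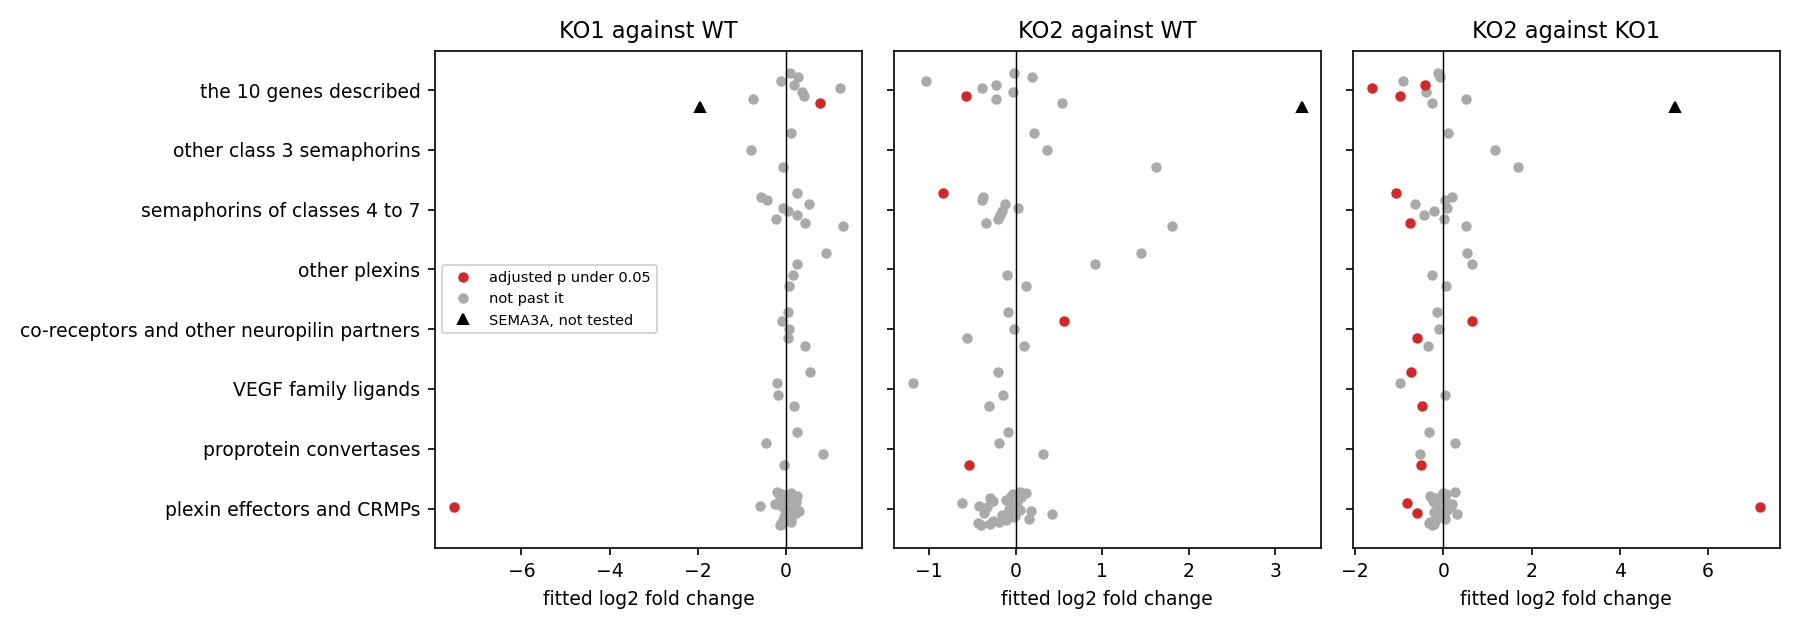
Fitted log2 fold changes of the tested genes of the 10 described and of the 7 pathway lists in the 3 comparisons, 1 point per gene. Points are red where the edgeR adjusted p is under 0.05 and grey where it is not. A black triangle marks SEMA3A, shown as a description without its test result. The outlying points are DPYSL5 at −7.52 in KO1 against WT and at 7.19 in KO2 against KO1, and SEMA3A at 5.25.

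Likeness to SEMA3A was measured as Pearson's r of log2 CPM centred within set over the 6 libraries, among 471 genes with a fitted difference of at least 1 between KO2 and KO1. Because centring leaves few independent points and all genes share the libraries, r is given as a description. SEMA3A was chosen for its differences between groups, so a large r of either sign largely restates the comparisons above. The share of all tested genes with such an r was not counted. The 5 most like SEMA3A were SCX, a tendon transcription factor, with r of 0.999, CYP1B1, a cytochrome P450 enzyme, with 0.993, ZFP36L2, an mRNA decay factor, with 0.993, ASIC4, an acid-sensing channel subunit, with 0.991, and CASP10, a death receptor caspase, with 0.990. Their differences were smaller than those of SEMA3A: ZFP36L2, the most abundant, was 73.9 and 62.6 CPM in WT, next to 38.5 and 51.9 in KO1, and 140 and 145 in KO2. Within the family r with SEMA3A was −0.97 for SEMA3F, −0.97 for PLXNA1, −0.86 for PLXNA2, −0.81 for NRP2, −0.67 for NRP1, −0.55 for PLXND1, −0.14 for SEMA3B, −0.09 for PLXNA3 and 0.55 for SEMA3C.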

How the data were processed

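Poly(A) RNA-seq was deposited for 6 libraries of HCT116 cells, 2 each of WT, KO1 and KO2. Per the file headers, the authors' tables hold unnormalized read counts per gene symbol. From the authors' comparison of each guide with WT they also hold log2 fold changes and p-values, raw and adjusted. DESeq2, STAR, HTSeq 0.6.0 and hg18 are named in the submitters' processing notes, with no step given for any. Another 40 per-sample columns, the authors' normalized values among them, were not used, so levels per length were computed as CPM per kilobase of union exon length (GENCODE) instead of the authors' planned values. The tables were joined on symbol: 15284 genes are in both, 264 only in the KO1 table and 429 only in the KO2 table, with 0 WT reads in those.

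Counts were tested as deposited in R 4.3.3 with edgeR 4.0.16: TMM, filterByExpr (minimum count 10), then glmQLFit and glmQLFTest with terms for group and prefix set (2 residual degrees of freedom), and Benjamini-Hochberg adjustment over 12678 genes at 0.05. The SE was taken as |log2 fold change| over √F. Log2 CPM uses a prior count of 2. Column names carry a prefix but no replicate number. The prefix serves as the replicate block, as the design text of the series names such prefixes, and deviations from group means correlated across genes at 0.867, 0.815 and 0.783 between same-prefix libraries of WT and KO1, WT and KO2, and KO1 and KO2. The libraries of a group differed beyond counting noise (chi-square per degree of freedom 142, 119 and 91.5). Alternatives were no set term, DESeq2 1.42.0, its size factors in edgeR, limma-voom 3.58.1, no filter, leaving out each library and, added after seeing the data, DESeq2 and limma-voom without the set term. On data simulated for KO1 against WT over 12570 genes, 86 of 100 changes of 2-fold and 98 of 100 of 4-fold were recovered, with 6 false calls. These data were drawn from the fitted model with its set term and spread. They check the code and cannot check whether that term is right for the real libraries.

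The members, the 7 pathway lists and the 5 marker lists were chosen with earlier results of these data known. Named are the 10 members, up to 3 genes past the threshold per pathway list and comparison by smallest p, and the 5 genes most like SEMA3A among those whose mean log2 CPM is 1 or more, with a difference of at least 1 between KO2 and KO1. SEMA3D, SEMA3E, SEMA3G, PLXNB2, PLXNA4 and KDR were named after their values were seen. Genes with near-identical copies are uncertain.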

Additional observations from a re-analysis of the deposited data

Results flagged for a closer look

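In a direct test of KO2 against KO1, 3 of the 9 genes other than SEMA3A differed between the guides, where 9.62% of all tested genes did. The log2 difference was −0.98 for SEMA3F, −1.62 for NRP2 and −0.41 for PLXNA1. That of SEMA3A was 5.25, given as a description without its test result since the gene was chosen for it. Against WT, the SEMA3F, NRP2 and PLXNA1 values were above 0 in KO1 and below 0 in KO2, and those of SEMA3A the other way round, in each prefix set. With each library left out in turn, the tested difference ran from −1.08 to −0.86 for SEMA3F, −1.92 to −1.38 for NRP2 and −0.45 to −0.38 for PLXNA1. The calls for NRP2 and PLXNA1 were lost under some of these fits.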

How the results depend on the processing

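The counts of calls depended mostly on the set term. Without it (no replicate block), edgeR called 0, 0 and 0 genes in KO1 against WT, KO2 against WT and KO2 against KO1. With it, edgeR called 130, 585 and 1220 genes. The family counts without it were 0, 0 and 0 of the 9 genes other than SEMA3A. All family counts in this section leave out SEMA3A, since it was chosen for its differences. Without SEMA3A, edgeR with the set term called 1, 1 and 3 of the other 9 genes. Limma-voom without the set term also called 0, 0 and 0 (169, 314 and 534 at an unadjusted p under 0.05) and 0, 0 and 0 family genes. DESeq2 without the set term called 16, 42 and 118 genes, with 0, 0 and 0 of the other 9. DESeq2 with the set term called 205 genes in KO1 against WT. With no filter on low counts 316 and 949 were called for KO1 and KO2 against WT, with 2 and 2 family genes. Leaving out 1 library gave 69 to 901, 317 to 2170 and 391 to 3202 genes in the 3 comparisons, with 0 to 5, 1 to 4 and 2 to 6 family genes. The highest count for KO1 came without the HCT library of KO2 and the others without its HCT116 library. The cause was not tested. The count between sets stayed between 6481 and 8754 over these fits. Of the values of the other 9 genes, 296 kept direction and side of the threshold, 26 lost and 12 gained a call, and 17 changed sign. None of the sign changes was in a comparison where the gene had passed with all 6 libraries. For PLXNA2 in KO1 the sign changed with no set term (0.013), limma-voom (0.00172) and DESeq2 without a set term (0.0111). Over the fits without 1 library PLXNA2 in KO1 ran from −0.56 to 0.14, PLXND1 from −0.0511 to 0.23 in KO1, −0.10 to 0.0570 in KO2 and −0.27 to 0.0288 between the knockouts, and PLXNA3 from −0.21 to 0.0571 between the knockouts. SEMA3B ran from −0.51 to 0.0187 between the knockouts, and in KO2 SEMA3C ran from −0.55 to 0.17, NRP1 from −0.18 to 0.15 and NRP2 from −0.62 to 0.00548. SEMA3A ran from −2.42 to −1.08 in KO1, 2.77 to 4.11 in KO2 and 4.88 to 5.83 between the knockouts. Calls gained with no filter were SEMA3B in KO2 (edgeR adjusted p = 0.0257) and SEMA3C in KO1 (edgeR adjusted p = 0.0418). With a group left at 1 library, that library is assumed to vary like the others. The spread then comes from the other groups alone, so a call gained in such a fit is not read as support. With 10 to 108 counts per library for PLXNA2 and 18 to 95 for NRP2, counting error limits those genes most.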

Other observations

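SEMA3A shares a stretch of chromosome 7 with other class 3 genes. Its 5 nearest tested genes on each side in the GENCODE gene order were MAGI2, GNAI1, SEMA3C, PCLO and SEMA3E, and SEMA3D, KIAA1324L, DMTF1, TMEM243 and ABCB1. None of these 10 passed the threshold in edgeR in KO1 or in KO2 against WT. In KO2 the values furthest from 0 were 1.62 for SEMA3D (edgeR adjusted p = 0.125) and 0.91 for ABCB1, a drug efflux pump (adjusted p = 0.141), and in KO1 they were −0.80 for SEMA3E (adjusted p = 0.765) and −0.74 for SEMA3C (adjusted p = 0.173).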
